A study of Mus musculus with 4 samples.

Results

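The glucocorticoid receptor gene Nr3c1, the hormone-activating enzyme gene Hsd11b1 and 8 genes known as targets of the receptor in muscle were followed in dystrophic soleus after a year of cell infusions. The 10 genes were matched by symbol, from a list drawn up with earlier results of these data known: Nr3c1, Hsd11b1, Fkbp5, Tsc22d3, Klf9, Klf15, Ddit4, Glul, Mt1 and Mt2. All 10 were among the 24054 symbols of the deposited table, and all 10 were among the 13652 genes that passed the filter on low counts. Relative to vehicle, Ddit4 and Tsc22d3 were 3.27-fold and 1.81-fold lower and the metallothionein genes Mt1 and Mt2 were 2.25-fold and 3.01-fold higher in the muscles of mCDC-treated *mdx* mice, while the receptor itself differed by less than the spread between muscles. None of these differences had an adjusted p under 0.05 in the test used, and the sizes depended on single libraries. Without mCDC replicate 2 neither metallothionein gene was called, without vehicle replicate 1 Tsc22d3 was no longer called, and without the same library Ddit4 was still called at a log2 fold change of -1.05.

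The mice were female, carried the *mdx* mutation on the C57BL/10ScSn background and lack dystrophin, and treatment began at 8 weeks of age. The mCDC group (n = 2) received mouse cardiosphere-derived cells, a stromal cell grown from heart tissue, at passage 5 through the femoral vein every month. The vehicle group (n = 2) received the same volume of the carrier medium, and 1 soleus library stood for each sample at the 12-month endpoint. Both groups carry the dystrophin mutation, so no muscle with dystrophin was compared. The sources used here give n = 2 per condition and do not trace each library to an animal, so p-values measure the spread between these libraries. The RNA came from whole muscle, in which fewer cells of a type and less RNA per cell cannot be told apart.

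Glucocorticoids are adrenal steroid hormones that enter cells and bind a receptor held in the cytoplasm by chaperones. The bound receptor moves to the nucleus and binds DNA at palindromic response elements, where it turns on genes that restrain inflammation, slow protein synthesis and release amino acids from muscle. Long treatment with these hormones is standard care in Duchenne muscular dystrophy, and muscle wasting is a known side effect. Metallothioneins are small zinc-binding proteins whose genes answer to metals through the zinc sensor MTF1 as well as to glucocorticoids.

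The stretches of DNA before the RefSeq starts of 3 called members are shown because they carry the sequence elements that the background above concerns. Coordinates are of GRCm38.p6, and each stretch is part of the 250 bases before the start, read 5′ to 3′ on the strand of the gene without bases that GENCODE places in exons of that strand. Capitals mark the metal response core, searched on both strands as TGCACNC or TGCGCNC, in Mt2 and Mt1, and the receptor hexamer TGTTCT, also searched on both strands, in Tsc22d3. The Mt2 stretch is chr8:94172368-94172617 on the plus strand, the Mt1 stretch is chr8:94178839-94179081 on the plus strand and the Tsc22d3 stretch is chrX:140600660-140600772 on the minus strand.
Mt2: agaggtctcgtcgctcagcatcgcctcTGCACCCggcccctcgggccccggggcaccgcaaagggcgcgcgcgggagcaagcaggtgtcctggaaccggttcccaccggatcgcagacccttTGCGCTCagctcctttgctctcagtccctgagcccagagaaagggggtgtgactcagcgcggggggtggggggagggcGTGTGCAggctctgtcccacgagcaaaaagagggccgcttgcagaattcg
Mt1: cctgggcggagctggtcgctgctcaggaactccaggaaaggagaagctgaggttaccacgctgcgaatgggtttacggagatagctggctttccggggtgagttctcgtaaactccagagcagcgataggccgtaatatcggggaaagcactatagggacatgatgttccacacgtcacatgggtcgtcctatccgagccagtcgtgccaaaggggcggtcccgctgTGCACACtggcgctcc
Tsc22d3: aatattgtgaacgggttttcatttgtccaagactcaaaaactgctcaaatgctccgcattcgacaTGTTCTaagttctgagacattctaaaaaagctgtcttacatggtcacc
Mt2 held 3 metal response cores, which began 223, 128 and 50 bases before the start. Mt1 held 1, which began 23 bases before the start. Of 32851 mouse windows of this length, 21.4% held at least 1 core and 1.26% held 3 or more. Windows were read for 9 members, 3 of them for Tsc22d3, which has several starts, and 1 for each of the other genes. A core was found for 6 of them: Mt2, Mt1, Ddit4, Klf15, Glul and Hsd11b1. The hexamer was found for 1 of the 9, Tsc22d3, in 1 of its 3 windows, where it began 185 bases before that start, and 16.1% of all windows held it. The full palindromic element, that hexamer and its reverse complement with 3 bases between them, was in none of the 11 member windows and in 3 of all windows. These matches describe letters in short windows and say nothing of binding. GENCODE starts of the Mt2 transcripts lie 46 and 242 bases after the RefSeq start. Those of Mt1 lie 7 bases before it and 122 and 152 bases after it. The windows of both genes thus leave out DNA just before the later starts.

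The 4 libraries held between 22481391 and 27187425 expected counts each, and levels are given as CPM, the count of a gene per scaled library size, with scaling by the trimmed mean of M-values. A gene is called where edgeR's quasi-likelihood test, fitted over all 13652 genes, gave an unadjusted p under 0.05 and a difference of more than 1.5-fold. The methods of the study name edgeR and these limits of p and fold but neither the form of the test nor whether p was adjusted. By this rule 4.0% of all genes were called, 1.26% as higher and 2.74% as lower in mCDC muscles. Of the 10 members, 4 were called, Mt1 and Mt2 as higher and Tsc22d3 and Ddit4 as lower. An unadjusted p under 0.05 was reached by 5 of the 10, against 6.94% of all genes. After Benjamini-Hochberg adjustment over all genes, no gene had an adjusted p under 0.05 by edgeR's quasi-likelihood test, although 947 had an unadjusted p under 0.05. The count at an adjusted p under 0.05 was 51 genes with DESeq2, 66 with edgeR's likelihood ratio test and 58 with its exact test, and Ddit4 and Tsc22d3 were the 2 members among them in each. The median log2 fold change was -0.11 over the members and -0.0094 over all genes. For 1 gene alone, 2 libraries against 2 allow an exact two-sided permutation p of 0.333 at the lowest.

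**Figure D1:**
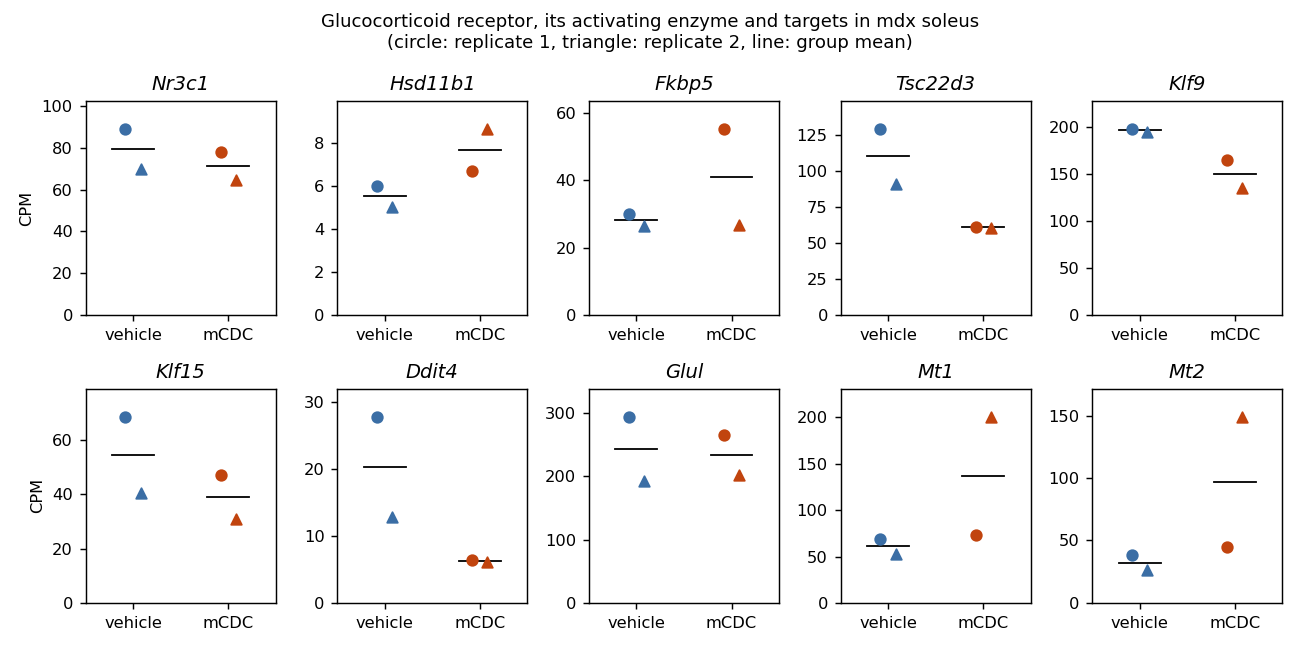
CPM of the 10 genes in each library, with vehicle muscles in blue, mCDC muscles in red, circles for replicate 1, triangles for replicate 2 and a line at the group mean. Both mCDC libraries sit below both vehicle libraries for Ddit4, Tsc22d3 and Klf9 and above them for Mt1, Mt2 and Hsd11b1, and the groups overlap for the other 4 genes.

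Groups that do not overlap were common, at 38.7% of all genes, of which 19.2% of genes were higher and 19.5% lower in both mCDC libraries. Among the members, 3 were higher and 3 were lower in both mCDC libraries, as the plot of the member levels shows.

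Nr3c1, the receptor, stood at 78.1 and 64.4 CPM in mCDC replicates 1 and 2 and at 89.1 and 69.9 CPM in vehicle replicates 1 and 2. The groups overlapped, and replicate 1 was the higher library in each. The log2 fold change was -0.16 (SE 0.17, 95% interval -0.55 to 0.23, adjusted p = 0.838). Hsd11b1, which encodes the enzyme that regenerates active corticosterone inside cells, stood at 6.70 and 8.68 CPM in mCDC muscles and at 6.03 and 5.02 CPM in vehicle muscles. Both mCDC libraries were above both vehicle libraries, by 1.11-fold where they came closest, and between 138 and 190 counts per library lay behind these values. Its log2 fold change was 0.47 (SE 0.23, 95% interval -0.055 to 1.004, adjusted p = 0.725), and it was not called.

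The list of its chaperones, co-chaperones and cofactors held 21 genes, all tested, of which 0 were called by edgeR's quasi-likelihood test, 0 by DESeq2 and 4 had an unadjusted p under 0.05. Up to 2 were called with single libraries left out (without mCDC replicate 1 or vehicle replicate 2). Hsp90aa1, the inducible HSP90 chaperone, had a log2 fold change of 0.45, and Stip1, which hands the receptor from HSP70 to HSP90, one of 0.36. The coactivator genes Ncoa2 and Ncoa3 had log2 fold changes of -0.53 and -0.50. Fkbp4, which encodes the immunophilin that competes with the Fkbp5 product for a place on the receptor complex, had a log2 fold change of 0.081, which changed sign in some alternatives. H6pd, which supplies the Hsd11b1 enzyme with its cofactor, had a log2 fold change of -0.035, which changed sign without mCDC replicate 2 and without vehicle replicate 2. Hsd11b2, which encodes the opposing enzyme that inactivates the hormone, lay between 0.046 and 0.11 CPM and was not tested. Serpina6, the gene of the corticosteroid carrier of plasma, had no count in any library.

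Of the 8 steroid handling genes listed, 4 were tested and 1 was called, Nr3c2, which encodes the mineralocorticoid receptor, a second receptor for corticosterone. It stood at 4.89 and 4.16 CPM in mCDC muscles and at 11.3 and 6.15 CPM in vehicle muscles. The groups did not overlap, and vehicle replicate 1 was the highest library. The log2 fold change of -0.94 (SE 0.31, adjusted p = 0.665) was -0.44 and no longer called without vehicle replicate 1.

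Ddit4 (chr10:59949669-59951834 on the minus strand) encodes an inhibitor of the growth kinase mTORC1. It stood at 6.32 and 6.08 CPM in mCDC muscles and at 27.8 and 12.8 CPM in vehicle muscles. The mCDC libraries lay within 1.04-fold of each other, the vehicle libraries lay 2.17-fold apart, and the lower vehicle library was 2.02-fold above the higher mCDC library. Ddit4 was 3.27-fold lower in mCDC muscles, at 6.20 ± 0.18 CPM (SD, n = 2) against 20.3 ± 10.6 CPM (SD, n = 2). The log2 fold change of -1.71 (SE 0.34) had an unadjusted p of 0.00103 and an adjusted p of 0.462 by edgeR's quasi-likelihood test and an adjusted p of 4.73e-04 by DESeq2. Leaving out single libraries gave values between -2.16 and -1.05, and Ddit4 was called each time.

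Tsc22d3 (chrX:140539528-140600659 on the minus strand) encodes GILZ, a protein through which glucocorticoids restrain inflammation. It stood at 61.6 and 60.8 CPM in mCDC muscles and at 129.7 and 91.6 CPM in vehicle muscles. Both mCDC libraries were below both vehicle libraries, by 1.49-fold at the closest, and the mCDC libraries differed by 1.01-fold. Tsc22d3 was 1.81-fold lower in mCDC muscles, with a log2 fold change of -0.85 (SE 0.18), an unadjusted p of 0.00142 and an adjusted p of 0.510 by edgeR's quasi-likelihood test and an adjusted p of 0.0207 by DESeq2. Without vehicle replicate 1 the log2 fold change was -0.58 and the gene was no longer called. In that library Ddit4 and Tsc22d3 both had their highest value.

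Klf9, a transcription factor gene and one of the most general receptor targets, stood at 166 and 135 CPM in mCDC muscles and at 199 and 195 CPM in vehicle muscles. The groups did not overlap, and the vehicle libraries lay within 1.02-fold of each other. The log2 fold change was -0.39 (SE 0.14, unadjusted p = 0.0273, adjusted p = 0.705 by edgeR's quasi-likelihood test), a 1.31-fold difference that stayed under the 1.5-fold threshold. Klf15, which encodes a regulator of amino acid and lipid use in muscle, stood at 47.0 and 30.7 CPM in mCDC muscles and at 68.6 and 40.6 CPM in vehicle muscles. The groups overlapped, and replicate 1 was the higher library in each. Its log2 fold change was -0.49 (SE 0.28, adjusted p = 0.747) and was not called, though it was -0.83 and called without mCDC replicate 1, -0.82 and called without vehicle replicate 2, and -0.061 without vehicle replicate 1.

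The 10 genes of amino acid breakdown and lipid flux linked to KLF15 were all tested. The count called changed without mCDC replicate 1. With all 4 libraries 1 was called, as higher. This was Fabp3, the muscle fatty acid carrier gene, at 2122 and 2129 CPM in mCDC muscles and 1249 and 1231 CPM in vehicle muscles (log2 fold change 0.78, SE 0.15, adjusted p = 0.462). Klf15 and Fabp3 thus had fitted changes of opposite sign.

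Fkbp5 encodes the co-chaperone that holds the receptor in its low-affinity state and is itself a receptor target. It stood at 55.3 and 26.9 CPM in mCDC muscles and at 30.1 and 26.5 CPM in vehicle muscles. Only mCDC replicate 1 stood apart, 2.06-fold above the other mCDC library, and the groups overlapped. The log2 fold change of 0.54 (SE 0.30, 95% interval -0.15 to 1.22, adjusted p = 0.740) was 0.96 and called without mCDC replicate 2 and -0.076 without mCDC replicate 1.

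Glul encodes glutamine synthetase, which muscle uses to export nitrogen. It stood at 266 and 203 CPM in mCDC muscles and at 295 and 192 CPM in vehicle muscles, with overlapping groups and the higher value in replicate 1 of each. The log2 fold change was -0.054 (SE 0.22, 95% interval -0.56 to 0.46, adjusted p = 0.969), and it changed sign without mCDC replicate 2 or vehicle replicate 1. Of its 31-base words, 19.7% also occur in transcripts of other genes, 15.5% in the pseudogene Glns-ps1. Words shared with symbols of the count table were 1.92%, Glns-ps1 is not among those symbols, and whether reads were split with it is not known.

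**Figure D2:**
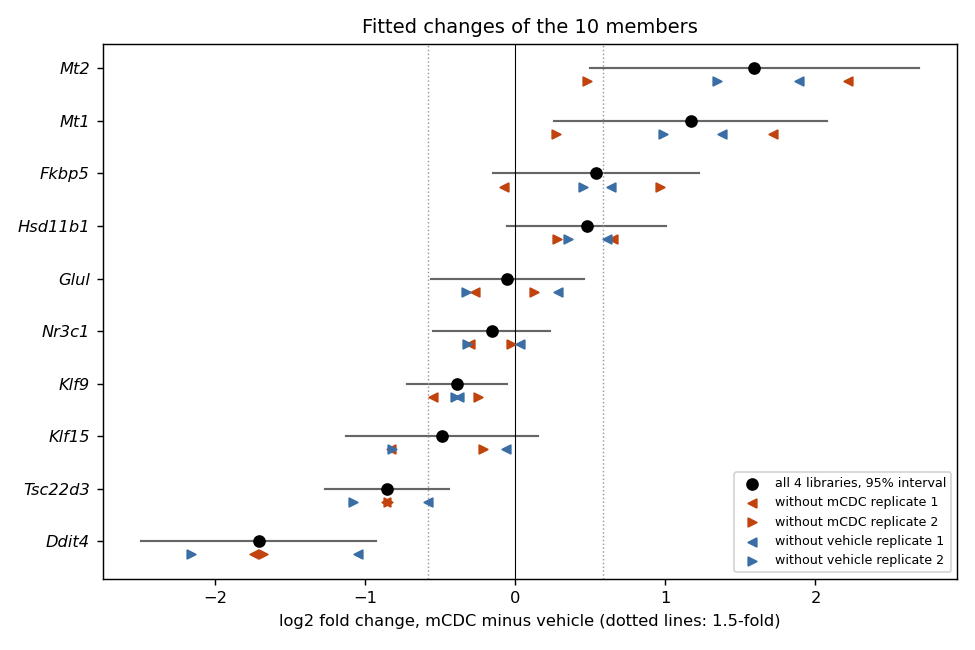
Fitted log2 fold change of mCDC minus vehicle muscles for the 10 genes, with 95% intervals from all 4 libraries (black) and the value with each library left out (triangles, red for mCDC and blue for vehicle libraries), and dotted lines at 1.5-fold. Ddit4 lies below the lower dotted line in every case, whereas Mt1 and Mt2 fall to 0.27 and 0.47 without mCDC replicate 2.

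Mt2 (chr8:94172664-94173568) and Mt1 (chr8:94179082-94180327) lie on the plus strand of the same chromosome, with 5513 bases between them. All gene positions are those of GENCODE on GRCm38. Mt1 stood at 73.7 and 201 CPM in mCDC muscles and at 69.3 and 52.9 CPM in vehicle muscles. Mt2 stood at 44.7 and 149 CPM in mCDC muscles and at 38.1 and 26.2 CPM in vehicle muscles. For both genes the groups did not overlap, but mCDC replicate 2 was far above the other 3 libraries, and mCDC replicate 1 was only 1.06-fold for Mt1 and 1.17-fold for Mt2 above the higher vehicle library.

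Mt1 was 2.25-fold higher in mCDC muscles (log2 fold change 1.17, SE 0.39, unadjusted p = 0.0182, adjusted p = 0.683 by edgeR's quasi-likelihood test). Mt2 was 3.01-fold higher (log2 fold change 1.59, SE 0.47, unadjusted p = 0.0101, adjusted p = 0.635 by the same test). Without mCDC replicate 2 the log2 fold changes were 0.27 and 0.47, and neither gene was called. Both calls were also lost without vehicle replicate 2, at 0.99 for Mt1 and 1.35 for Mt2. With DESeq2 both were lost at log2 fold changes of 1.18 and 1.60. The DESeq2 unadjusted p was 0.0925 for Mt1 and 0.0525 for Mt2. Leaving out single libraries gave values up to 1.72 for Mt1 and 2.21 for Mt2. The metallothionein result thus rested largely on 1 mCDC library.

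The ratio of Mt1 to Mt2 CPM was 1.65 and 1.35 in mCDC muscles and 1.82 and 2.02 in vehicle muscles, lowest in the library with the most of both. The transcripts of the pair share none of their 31-base words, so reads of 1 gene are not counted for the other on that ground. The antisense gene Gm45774 covers 73.5% of the exon bases of Mt2 and is not listed in the count table, and whether counting used strand is not given in the sources used here, so antisense reads in the Mt2 value cannot be told apart.

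Of the 7 genes of zinc sensing, zinc transport and the other metallothioneins, 6 were tested, 0 were called by edgeR's quasi-likelihood test, 0 had an unadjusted p under 0.05 and 0 were called by DESeq2. Without mCDC replicate 1, which leaves the mCDC library highest in Mt1 and Mt2, 1 of the 6 was called higher and 1 lower. Mtf1, the zinc sensor, had a log2 fold change of 0.076, and Slc30a1, the zinc exporter that MTF1 turns on, one of -0.015. Both changed sign in some alternatives. Slc30a1 spanned 13.1 to 15.6 CPM over the 4 libraries, and in mCDC replicate 2, where Mt1 and Mt2 were highest, it stood at 14.1 CPM. The zinc transporter genes Slc39a10 and Slc39a14 were highest in mCDC replicate 2, at 10.7 and 25.5 CPM. Slc39a8 was lowest in that library, at 0.32 CPM. The part of zinc in the Mt1 and Mt2 values was not tested. Mt3 lay between 0.58 and 0.73 CPM, and Mt4 had no count in any library.

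**Figure D3:**
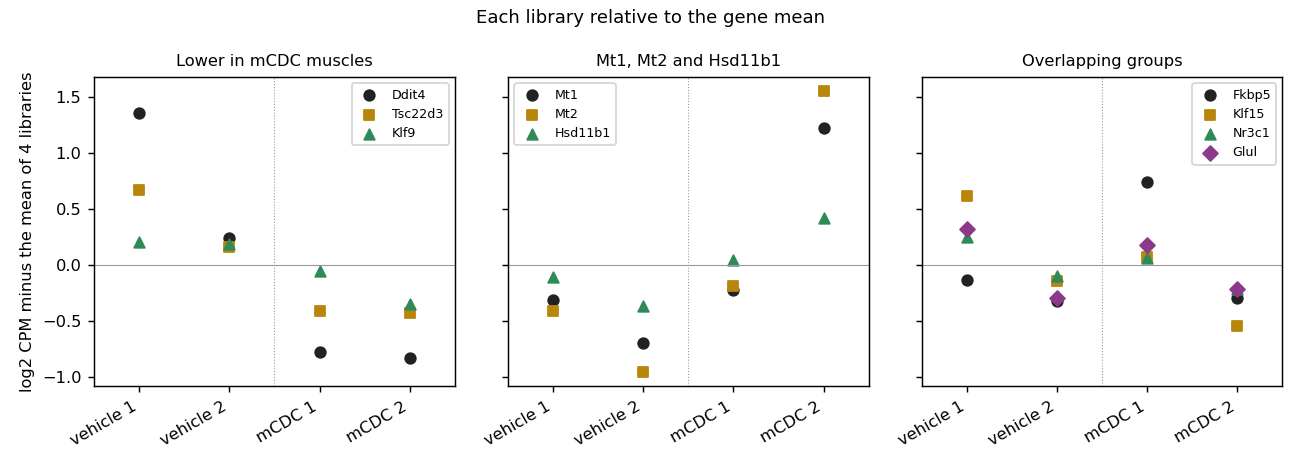
Log2 CPM of each gene in each library relative to its own mean over the 4 libraries, for the 3 genes below vehicle in both mCDC libraries, the 3 above it and the 4 with overlapping groups. Ddit4 and Tsc22d3 peak in vehicle replicate 1, Mt1 and Mt2 peak in mCDC replicate 2, and Fkbp5 peaks in mCDC replicate 1.

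In the profile plot 6 of the 10 members, Nr3c1, Tsc22d3, Klf9, Klf15, Ddit4 and Glul, had their highest value in vehicle replicate 1, Mt1, Mt2 and Hsd11b1 in mCDC replicate 2 and Fkbp5 in mCDC replicate 1. Likeness was measured as the Euclidean distance between log2 CPM profiles over the 4 libraries, each centred on its own mean, against the 13651 other genes tested. Nearest to Ddit4 were Pdpr at 0.14, Matn4 at 0.37 and Megf9 at 0.41, and Tsc22d3 ranked 50 at a distance of 0.88. Nearest to Tsc22d3 were Rassf4 at 0.057, Zfp931 at 0.075 and Cep83os at 0.089, and from Tsc22d3 the gene Ddit4 ranked 4540 at that same distance of 0.88. Nearest to Mt1 were Uck2 at 0.15, Olr1 at 0.27 and Arc at 0.31, with Mt2 at rank 17 and 0.43. Nearest to Mt2 were Atf3 at 0.30, Mt1 at 0.43 and Uck2 at 0.46. With 4 libraries many genes share a profile, and these distances describe the libraries only.

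Per kilobase of the principal transcript, the mean levels in vehicle muscles ran from Mt1 at 111 CPM per kb through Glul at 87.2, Mt2 at 62.9, Tsc22d3 at 56.0, Klf9 at 43.9, Klf15 at 22.01, Nr3c1 at 12.3, Ddit4 at 11.6 and Fkbp5 at 7.34 to Hsd11b1 at 3.40. The libraries of neighbours in this order overlapped from Mt1 through to Tsc22d3 and from Nr3c1 through to Fkbp5. In mCDC muscles the order began with Mt1 at 250.2 CPM per kb and Mt2 at 190 and ended with Hsd11b1 at 4.74 and Ddit4 at 3.53. Ddit4 moved from the place below the receptor to the last place, and its 2 mCDC libraries, at 3.604 and 3.462 CPM per kb, were both below those of Hsd11b1. In the mCDC order Mt1 overlapped with Mt2, Mt2 with Glul, Klf9 with Tsc22d3 and Nr3c1 with Fkbp5.

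Among 32 other genes known to be induced by glucocorticoids, 31 were tested, of which 3 were called higher and 7 lower. Their median log2 fold change was -0.33, against -0.0094 over all genes. The genes called were 32.3% of the 31 tested, against 4.0% of all genes. This list was written with earlier results of these data known. Without vehicle replicate 1 its median was -0.16. The count called also changed as each library was left out.

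**Figure D4:**
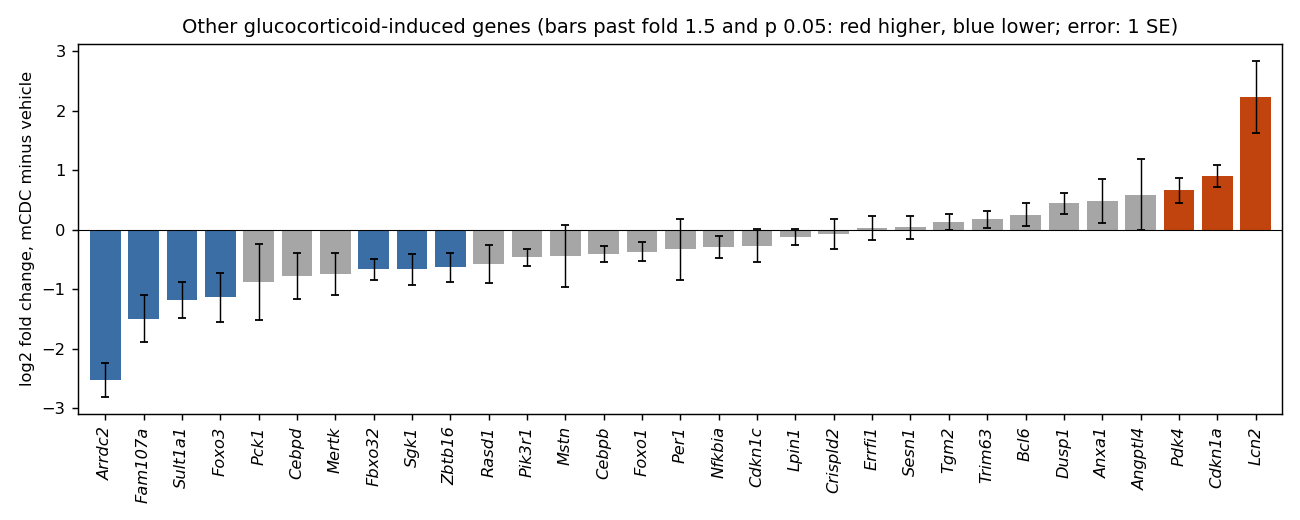
Fitted log2 fold change (bars) with 1 SE for the 31 other glucocorticoid-induced genes tested, in red or blue where called higher or lower in mCDC muscles. The bars run from Arrdc2 at -2.52 to Lcn2 at 2.24, with 7 blue and 3 red.

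Lowest in the plot of the induced genes was Arrdc2, an arrestin family gene, with 5.83 and 5.12 CPM in mCDC muscles and 40.4 and 22.7 CPM in vehicle muscles. Its log2 fold change of -2.52 (SE 0.28, adjusted p = 0.200) held the call with each library left out. Like Ddit4, it was highest in vehicle replicate 1 and nearly equal in the mCDC libraries. Fam107a and Sult1a1 had log2 fold changes of -1.49 and -1.18 and kept their calls as each library was left out.

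Genes of muscle atrophy were also in the list. Fbxo32, which encodes the ubiquitin ligase atrogin-1, stood at 271 and 211 CPM in mCDC muscles and at 426 and 339.8 CPM in vehicle muscles (log2 fold change -0.67, SE 0.18, adjusted p = 0.612). Trim63, which encodes the ligase MuRF1, stood at 155 and 157 CPM in mCDC muscles and at 151 and 125 CPM in vehicle muscles, with a log2 fold change of 0.17, and was not called, and the difference between the ligase genes was not tested. Of the FOXO factors that switch on both ligases, Foxo3 was called lower at -1.13, which was -0.31 and no longer called without vehicle replicate 1. Foxo1, at -0.37, was not called.

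Sgk1, a kinase gene that both corticosteroid receptors induce, had a log2 fold change of -0.66, which was -0.17 and no longer called without vehicle replicate 1. Zbtb16, a zinc finger repressor gene, had one of -0.63, which lost its call without vehicle replicate 1 or mCDC replicate 2. The Fbxo32 call was lost without the same libraries, that of Sgk1 also without mCDC replicate 2, and those of Zbtb16 and Fbxo32 also after removal of length and GC trends. The 3 genes called higher were Pdk4, which spares glucose and had a log2 fold change of 0.67, the cell cycle inhibitor gene Cdkn1a at 0.90, and Lcn2 at 2.24, which rested on 3 to 24 counts per library. Pdk4 lost its call without mCDC replicate 1 or vehicle replicate 1.

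Of 16 inflammatory genes known to be repressed by glucocorticoids, 6 were tested and 0 were called by edgeR's quasi-likelihood test or DESeq2. None of the 6 had an unadjusted p under 0.05, though 1 was called higher by the likelihood ratio test. With single libraries left out, 1 was called higher without mCDC replicate 1, 1 higher without vehicle replicate 2 and 2 lower without vehicle replicate 1. The other 10 fell below the filter on low counts.

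Ddit4 is also induced by ATF4 and by hypoxia, so those genes were read beside it. Their part in the Ddit4 values was not tested. Of 10 tested genes of the ATF4 and amino acid stress list, 2 were called higher and 1 lower. Log2 fold changes were above 0 for 6 of the 10 and below 0 for 4. Atf4 itself stood at 281 and 384 CPM in mCDC muscles and at 251 and 271 CPM in vehicle muscles. Its log2 fold change of 0.35 was not called. Atf3, a stress factor gene, had a log2 fold change of 1.65 and stood at 21.6 and 60.0 CPM in mCDC muscles and at 14.0 and 11.8 CPM in vehicle muscles, with its highest value in mCDC replicate 2, as for Mt1 and Mt2. Psat1, of serine synthesis, had a log2 fold change of 0.84, and Chac1, which breaks down glutathione, one of -1.25. Without mCDC replicate 2 the log2 fold change of Atf3 was 0.74, still called, and the Psat1 call was lost. Of 12 hypoxia-induced genes, all tested, 1 was called, the glucose transporter gene Slc2a1, as higher at 0.82, and without vehicle replicate 1 a further 2 were called lower.

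Per1, a clock gene that the receptor induces directly, ranged more within groups than between them, at 30.9 and 109 CPM in mCDC muscles and 115 and 60.5 CPM in vehicle muscles. Its log2 fold change was -0.33, and lay between -1.51 and 0.31 as single libraries were left out. Corticosterone follows the time of day, and clock genes differed between the groups. Of 10 clock output and negative-limb genes, 5 were called lower and 0 higher, with a median log2 fold change of -0.58. They were Hlf at -1.38, Per2 at -1.18, Per3 at -1.10, Ciart at -0.80 and Dbp at -0.71. Of 6 genes of the opposite phase, 2 were called higher, Arntl at 0.85 and Npas2 at 0.96. Nr1d1, of the negative limb, had a log2 fold change of 0.46, with both mCDC libraries above both vehicle libraries, and was not called. Between 3 and 6 of the output genes were called lower as each library was left out, and without vehicle replicate 2 there was also 1 called higher. Ciart lost its call in 5 of the 15 alternatives, with values from -1.50 to -0.32 on leaving out a library, and Dbp without mCDC replicate 1 or vehicle replicate 2. Arntl lost its call without mCDC replicate 1. Npas2 lost its call without mCDC replicate 1, without either vehicle library and with DESeq2. The hour at which muscles were collected is not given in the sources used here, and the part of the clock genes in the member values was not tested.

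The libraries also differed in markers of other cells. The 6 slow fibre markers of soleus summed to 80429 and 69759 CPM in mCDC muscles and to 76373 and 65834 CPM in vehicle muscles. The defining markers of the labelled muscle were thus present in every library. Of the 6, 5 were higher in both mCDC libraries, as were 19.2% of all genes, and none was called. The 6 fast fibre markers summed to 22366 and 19250 CPM in mCDC muscles and to 19322 and 23819 CPM in vehicle muscles, none called. Of these, Myh4, the fastest myosin heavy chain gene, stood apart at 2096 CPM in mCDC replicate 1, where Fkbp5 and Pdk4 were also highest, against 47.5 CPM in mCDC replicate 2 and 163 and 411 CPM in vehicle muscles. The 6 fibroblast markers summed to 350.3 and 308 CPM in mCDC muscles and 322 and 559 CPM in vehicle muscles, 2 of them called lower. The 6 endothelial markers summed to 115 and 92.7 CPM against 102 and 206 CPM, 1 of them called lower. Vehicle replicate 2 was highest for both, whereas Ddit4 and Tsc22d3 were highest in vehicle replicate 1. The tendon markers Tnmd, Fmod, Comp and Mkx were also highest in vehicle replicate 1 and below vehicle in both mCDC libraries. Among the other tendon markers, Thbs4 was highest in vehicle replicate 2 and Scx in mCDC replicate 2. The 6 adipocyte markers summed to 37.8 and 36.1 CPM in mCDC muscles and 64.7 and 17.7 CPM in vehicle muscles, none called, and vehicle replicate 1 was highest for these and for 6 of the 10 members, Nr3c1, Tsc22d3, Klf9, Klf15, Ddit4 and Glul. The 5 macrophage markers found summed to 28.1 and 35.4 CPM against 26.6 and 43.7 CPM, 1 called higher and 1 lower. The marker called higher, Cd68, stood at 4.13 and 15.4 CPM in mCDC muscles and at 2.71 and 4.15 CPM in vehicle muscles. Like Mt1 and Mt2, it was highest in mCDC replicate 2. The other 4 macrophage markers had log2 fold changes below 0. The neutrophil markers summed to at most 0.32 CPM in any library, with Mpo at 0 in all. The part of these cells in the member values was not tested.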

How the data were processed

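RNA was purified from soleus muscle (2 mCDC and 2 vehicle samples) and sequenced as single-end reads. The labels name a TruSeq stranded mRNA kit and the study's methods an xGen Broad-Range kit. The authors deposited expected counts per gene, estimated with RSEM from Bowtie 2 alignments to a UCSC transcript set, without normalization. The submitters' processing notes name RSEM 1.2.15, Bowtie2 2.1.0 and the mm10 build. Samples were grouped by the treatment label.

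For testing, each expected count was rounded to a whole number. Tests used edgeR (4.0.16, R 4.3.3) with filterByExpr, scaling by the trimmed mean of M-values, glmQLFit (legacy = FALSE) and glmQLFTest, without a replicate block and with adjustment by Benjamini-Hochberg over all 13652 genes tested. The form of the edgeR test, and whether p was adjusted, is not given in the sources used here. Log2 CPM for profiles used a prior count of 2. The labels do not say that a replicate number marks a shared animal, litter or day.

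The members and gene lists were chosen with earlier results of these data known. All members are named. Of the other gene lists the called genes, the partners or enzymes of members and some further uncalled genes are named. Among the uncalled genes are the 4 of the receptor complex list with an unadjusted p under 0.05 by edgeR's quasi-likelihood test. Called genes of the cell marker lists are named only in part. Likeness names the 3 nearest genes to each called member.

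Of the symbols, 22969 matched GENCODE or RefSeq names of GRCm38, 949 matched an older name and 136 matched none. Alternatives were DESeq2 1.42.0, other edgeR tests, other scaling and filters, thinning, a replicate block, removal of length and GC trends, and leaving out each library. The procedure was tested on simulated data.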

Additional observations from a re-analysis of the deposited data

How the results depend on the processing

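Across 15 alternative settings, 43 named genes gave 644 values, of which 584 kept their direction and their side of the call, 42 lost the call, 4 gained it and 14 changed sign. Over all genes 546 were called, 172 higher and 374 lower, and scaling by library totals alone gave 121 higher and 508 lower, so that the share called higher went from 31.5% to 19.2%. With DESeq2, 427 of 18132 genes were called, or 2.35% in place of 4.0%. Of the members, 2 were then called, 0 higher and 2 lower, in place of 4. Other whole-table alternatives left 4 members called. The deviations of same-numbered libraries correlated at -0.0388. With groups of 2 this cannot tell whether a replicate number marks a shared animal, litter or day. The replicate block called 481 genes, 4 members and 29 genes of the other lists. With single libraries left out, a lone library being assumed to vary like the other group, the count over all genes lay between 329 (without mCDC replicate 2) and 1107 (without vehicle replicate 1), and was 910 without mCDC replicate 1. Members called then lay between 3 and 5, genes called in the other lists between 22 and 37, and the median log2 fold change of the members between -0.33 and 0.16, above 0 without vehicle replicate 1 or mCDC replicate 2. Log2 fold changes that changed sign on leaving out a library ranged from -0.32 to 0.028 for Nr3c1, -0.076 to 0.96 for Fkbp5, -0.33 to 0.29 for Glul, -0.028 to 0.18 for Fkbp4, -1.51 to 0.31 for Per1, -0.16 to 0.081 for H6pd, -0.13 to 0.11 for Slc30a1 and -0.025 to 0.19 for Mtf1. With library totals alone Fkbp4 was at -6.0e-06 and Mtf1 at -0.0015, and with length and GC trends removed Slc30a1 was at 0.10. The causes were not tested. Ddit4 kept its call in all 15 alternatives, and Klf9, Hsd11b1, Nr3c1 and Glul were called in none. Groups of 2 are too small to test a library for standing apart.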

Other observations

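Relatives of the members were read in the same fit. Of 16 tested paralogues of the KLF, TSC22 domain, DDIT4 and FKBP families, 1 was called higher and 2 lower. The count called lay between 1 (without mCDC replicate 2) and 5 (without mCDC replicate 1) as each library was left out. Klf5, a growth factor-responsive member of the family, stood at 17.2 and 31.1 CPM in mCDC muscles and at 11.0 and 12.0 CPM in vehicle muscles, and its log2 fold change was 1.07 (SE 0.27, adjusted p = 0.571 by edgeR's quasi-likelihood test), which was 0.58 and no longer called without mCDC replicate 2. Klf6, induced by tissue injury, had a log2 fold change of -0.63, and Klf3, a repressor, one of -0.65. Klf6 lost its call without vehicle replicate 1, without mCDC replicate 1 and after removal of length and GC trends. Klf3 lost its call in 6 of the 15 alternatives. Ddit4l, the paralogue of Ddit4 found mostly in muscle, stood at 43.9 and 17.1 CPM in mCDC muscles and at 35.1 and 47.7 CPM in vehicle muscles and was not called, with groups that overlapped.

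Around Glul, the glutamine list held 10 tested genes of glutamine breakdown, transport and glutamate conversion. None was called by edgeR's quasi-likelihood test or by DESeq2, and none had an unadjusted p under 0.05, with a median log2 fold change of 0.062. Without mCDC replicate 1, 1 of the 10 was called higher. Of 10 immediate early genes, 1 was called, Atf3, as higher, and none as lower. This count depended on the libraries and the fit: 3 were called with the replicate block and 5 (4 higher, 1 lower) with mCDC replicate 1 left out. Leaving out vehicle replicate 2 gave 4, and leaving out vehicle replicate 1 gave 2. The 7 fibre genes of skeletal muscle summed to between 63127 and 70511 CPM over the libraries. Of the 6 tendon markers, 3 were called lower, Tnmd, Fmod and Comp, and Scx was called higher. The 6 red cell markers summed to 270.0 and 279.7 CPM in mCDC muscles and to 245 and 455 CPM in vehicle muscles, with 1 of 5 tested called lower.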
